A study of Mus musculus with 12 samples.

Results

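The genes described here are 10 regulators and markers of the epithelial-mesenchymal transition, followed in cultures of mouse Müller glia, the radial glia that span the retina. They were matched by symbol to the 49315 genes of the count tables: the transcription factors Snai1, Snai2, Twist1, Twist2, Zeb1 and Zeb2, the cadherins Cdh1 and Cdh2, the splicing regulator Esrp2 and the junction protein gene F11r. Messenger RNA was sequenced from 12 libraries, 3 for each of 4 groups. The Müller glia, from wild-type mice and labelled as primary cells of 4 passages, shared transwell plates with primary retinal pigment epithelium (RPE) cells for 2 h or 6 h. The treatment went to the RPE cells: either 100 nM PNU-282987, called PNU here, which activates nicotinic acetylcholine receptors of the α7 type, or DMSO alone, the solvent that the PNU groups received as well. The labels give the solvent as 0.1% in one place and 1% in another, so its concentration is not settled, and they state neither the age nor the sex of the mice. Replicates are called biological, but whether each stands for an animal or culture of its own is not said, and all p-values refer to the spread between the libraries at hand.

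In an epithelial-mesenchymal transition, cells lose the junctions and polarity of an epithelium and take on the shape and motility of mesenchyme. Snail and Zeb proteins are zinc-finger repressors that bind the E-box letters CAGGTG, read as CACCTG on the other strand, in promoters of epithelial genes such as Cdh1, and Twist proteins are basic helix-loop-helix factors that act in the same programme. The classical readout is a switch from Cdh1 (E-cadherin) to Cdh2 (N-cadherin), together with loss of the Esrp splicing regulators and of tight-junction proteins such as F11r. Müller glia are neural cells joined to photoreceptors by N-cadherin-based junctions, and they can take on mesenchymal traits in gliosis and in culture.

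Snai1 and Snai2 are close relatives, and the beginning of their coding sequences, which encodes the SNAG repressor domain, is shown because reads are told apart only where the genes differ. Capitals mark positions at which both genes hold the same base, 48 of the first 60 and 25 of the first 27, in coding sequence from the GENCODE M21 transcripts on GRCm38.
Snai1: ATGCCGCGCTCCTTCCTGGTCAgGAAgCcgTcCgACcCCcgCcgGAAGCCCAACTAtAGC
Snai2: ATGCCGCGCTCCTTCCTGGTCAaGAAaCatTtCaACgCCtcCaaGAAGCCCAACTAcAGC
The longest stretch of identical bases between the transcripts of Snai1 and Snai2 was 23, far below the read length of 150 bases. Other pairs of relatives among the Snail, Twist, Zeb, cadherin, Esrp and junction adhesion genes shared stretches of at most 35 bases, so reads of these genes had bases that tell the copies apart.

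RefSeq promoter windows on GRCm38.p6 were at hand for 5 of the 10 genes: Snai1, Twist1, Twist2, Zeb2 and F11r. Bases before the gene were searched for CAGGTG and CACCTG on both strands, which are reverse complements and so the same sites. Of these 5 windows, those of F11r and Snai1 each held 1 match, in capitals below. It lay 122 bases before the RefSeq start of F11r and 126 bases before that of Snai1. For F11r, 224 of the 250 bases are shown, because the gene as the count tables place it begins ahead of its RefSeq start. Over all genes, 17.2% of 32851 windows of 250 bases held such a match, so a match by itself is common and is only a description of the letters. They are shown because the factors measured here are known for these letters and F11r was 1 of the epithelial genes that differed between PNU and DMSO.
F11r promoter, plus strand, chr1:171437311-171437534: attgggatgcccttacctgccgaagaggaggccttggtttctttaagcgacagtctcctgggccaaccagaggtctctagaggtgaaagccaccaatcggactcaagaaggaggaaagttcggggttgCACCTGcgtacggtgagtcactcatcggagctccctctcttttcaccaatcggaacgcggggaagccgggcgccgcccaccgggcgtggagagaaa
Snai1 promoter, plus strand, chr2:167537945-167538194: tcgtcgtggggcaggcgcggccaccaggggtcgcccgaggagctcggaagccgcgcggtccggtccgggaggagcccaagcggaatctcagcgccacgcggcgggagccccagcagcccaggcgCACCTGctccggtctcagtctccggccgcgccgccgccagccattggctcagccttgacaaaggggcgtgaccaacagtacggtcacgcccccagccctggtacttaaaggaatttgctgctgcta

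Library totals ran from 44332013 to 66518799 counts, and levels are given in CPM, which are counts scaled to the library total after TMM normalization. A count of 3, the limit that a count of 0 allows, was worth 0.0458 to 0.0692 CPM, for counting error only. Among the Müller glia markers, 8 of 15 had a median above 1 CPM, with Vim above 100, and Glul ranged from 62.0 to 93.8 CPM. The defining markers Rlbp1 and Aqp4 stayed at or under 0.296 and 0.214 CPM. Of 10 fibroblast markers, 9 had a median above 1 CPM and 7 above 100, while of 11 RPE markers 1 had a median above 1 CPM, Mitf at 1.27 to 3.37 CPM, and Rpe65 stayed at or under 0.0461. The markers thus match the labelled cell type only in part. In bulk libraries, fewer cells of a type and less RNA per cell cannot be told apart. The 2 libraries with the largest mean log2 distance to their own group over all tested genes were taken as standing apart: DMSO 2 h replicate 3 at 0.859, nearest to PNU 2 h replicate 1, and PNU 6 h replicate 1 at 0.706, nearest to DMSO 6 h replicate 3. DMSO 2 h replicates 1 and 2 followed at 0.678 and 0.653, and both were nearest to DMSO 6 h replicate 3. PNU 2 h replicate 1, at 0.55, was nearest to DMSO 2 h replicate 3. Where the call of 1 of the 10 genes against DMSO changes when both libraries that stood apart are left out, it is given both ways. That fit called 9080 of all genes at 2 h and 4981 at 6 h, so passing in it is common. PNU 2 h replicates 2 and 3, PNU 6 h replicates 2 and 3, and all 3 DMSO 6 h libraries were nearly alike, with a coefficient of variation beyond counting of 0.0140 to 0.0234 against 0.0714 to 0.271 for other pairs. They still differed by more than counting noise and were kept as separate samples. At 6 h, any fit without PNU replicate 1 compares only libraries that were nearly alike within their group. The fit without both libraries that stood apart is 1 of these. Its small adjusted p-values at 6 h therefore say little about independent cultures.

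Per kilobase of annotated exons, the cells carried the RNA of mesenchymal-type factors and N-cadherin and almost none of E-cadherin. Twist1 had the highest median over the 12 libraries at 53.5 CPM per kilobase, followed by Snai1 at 47.4, Cdh2 at 23.6 and Snai2 at 20.4. Zeb1 followed at 9.08 CPM per kilobase, Zeb2 at 5.32 and Twist2 at 0.764. The epithelial genes came last, F11r at 0.136 CPM per kilobase, Esrp2 at 0.0815 and Cdh1 at 0.0108. The library ranges of neighbours in this order overlapped except between Zeb1 and Zeb2, between Zeb2 and Twist2, and between Esrp2 and Cdh1. The length is that of all annotated exons of a gene together, and the order of the factors depends on it. In CPM alone, the medians were 106.1 for Zeb2, 91.8 for Zeb1, 86.5 for Twist1 and 76.8 for Snai1. Among relatives outside the set, Esrp1 and Snai3 were nearly silent: Esrp1, the partner of Esrp2, had 0 to 3 counts per library and Snai3 had 0 to 4. The relatives of F11r were not, with Jam2 at 97.3 to 153.3 CPM and Jam3 at 39.7 to 52.4.

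**Figure D1:**
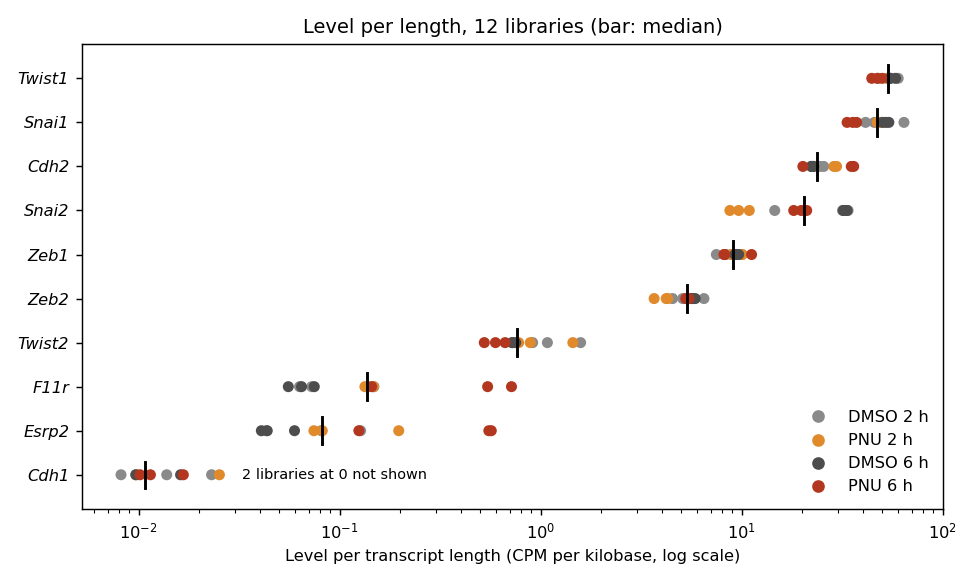
Level of each of the 10 genes per kilobase of annotated exons, labelled as transcript length on the axis (CPM per kilobase, log scale). Each point is 1 library coloured by group and the black bar is the median of 12 libraries. Twist1 is highest at a median of 53.5 and Cdh1 lowest at 0.0108, with 2 libraries at 0 counts left out of its row.

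The plot of levels by group shows each library. At 2 h, 1 of the 9 genes that passed the filter on low counts differed between PNU and DMSO: Snai2 was lower in PNU. The other 8 did not pass the test, against a background of 0.291% of all 17164 genes tested. By unadjusted p under 0.05 the count was 2 of 9, Snai2 and Zeb2, against a background of 30.0%. The PNU and DMSO libraries did not overlap for 3 genes, Snai2 and Zeb2 lower and Zeb1 higher in PNU, against 21.8% of all genes. At 6 h, 2 of 9 passed, Esrp2 and F11r, both higher in PNU, against a background of 1.05%. By unadjusted p under 0.05 the count was 6 of 9 at 6 h, against 15.6% of all genes. The groups at 6 h did not overlap for 7 of the 9, against 34.7% of all genes: Snai1, Snai2, Twist1, Twist2 and Zeb2 lower in PNU, Esrp2 and F11r higher. The median log2 fold change of the 9 was -0.02 at 2 h and -0.09 at 6 h, beside -0.01 and -0.01 over all genes. The genes were chosen with earlier results of these data known, so counts of the 9 beside all genes, here and below, only describe.

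**Figure D2:**
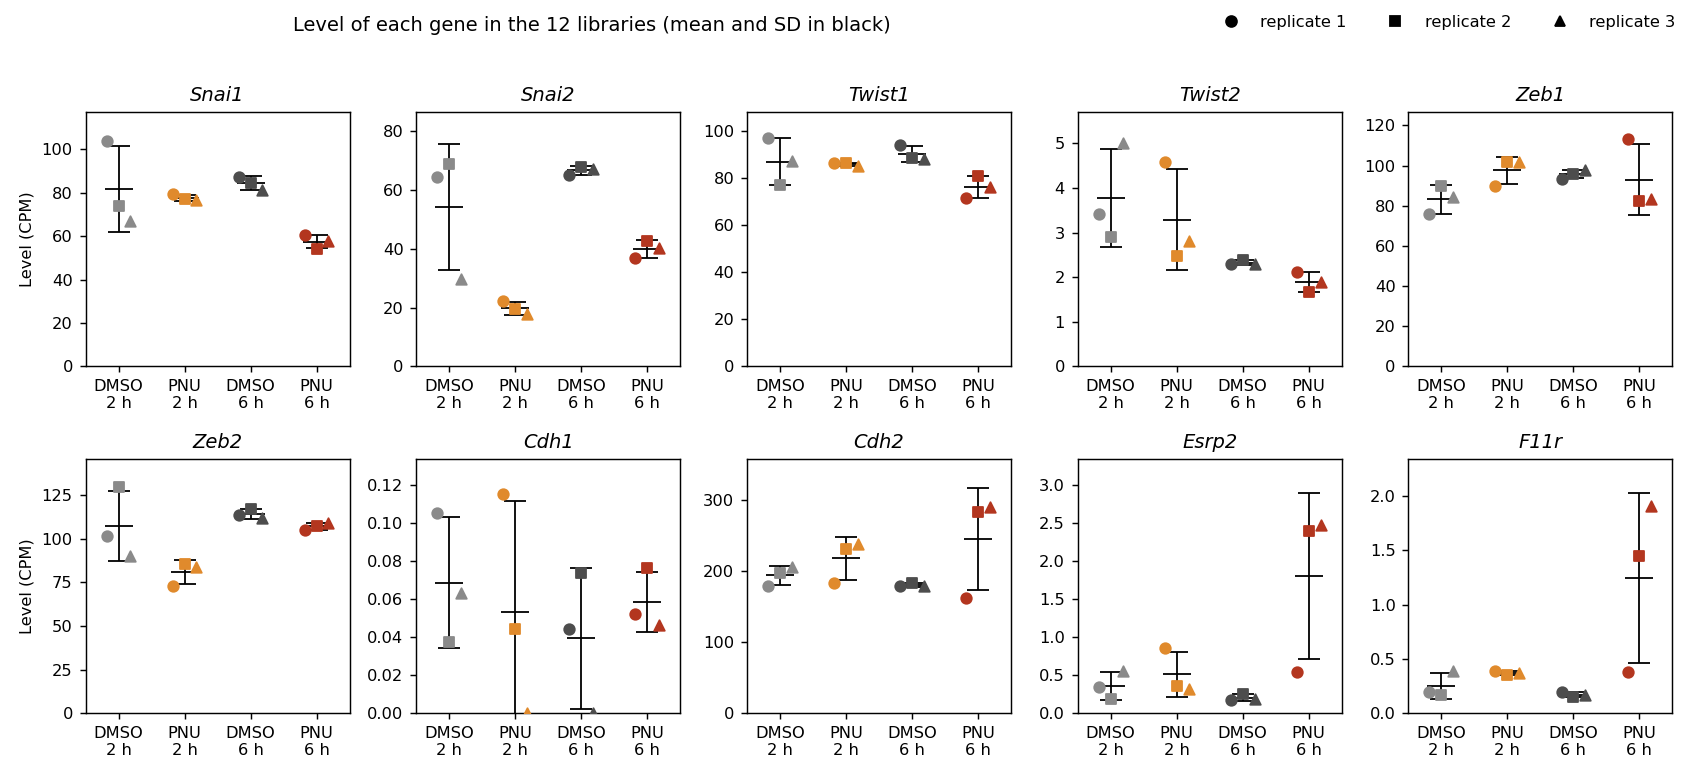
Level (CPM, linear axes that start at 0) of each gene in the 4 groups; points are libraries with the replicate shown by shape, and black lines are the mean and SD of 3 libraries. Snai2 sits between 17.7 and 22.2 CPM in PNU at 2 h, and Esrp2 and F11r are highest in replicates 2 and 3 of PNU at 6 h.

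Snai2, which encodes Slug, a repressor of epithelial genes, had the largest ratio of highest to lowest library among the 6 factors, 3.87, and its level was lowest in PNU at 2 h. In DMSO at 2 h it measured 64.5, 68.7 and 29.7 CPM in replicates 1, 2 and 3, and in PNU at 2 h 22.2, 19.6 and 17.7. At 6 h it measured 65.1, 67.9 and 67.2 CPM in DMSO and 36.9, 42.8 and 40.2 in PNU. All PNU libraries lay below all DMSO libraries of the same time, and DMSO 2 h replicate 3, 1 of the libraries that stood apart, came closest to the PNU level. At 2 h Snai2 fell from 54.3 ± 21.4 to 19.8 ± 2.22 CPM (SD, n = 3 each), a log2 fold change of -1.45 ± 0.24 (SE; edgeR adjusted p = 0.0385), or 2.74-fold lower. At 6 h the log2 fold change was -0.74 ± 0.24 and did not pass (edgeR adjusted p = 0.16), whereas it passed without both libraries that stood apart (-0.68, 0.000107) and in a fit of the 6 h libraries alone (-0.73, 0.00291). Without DMSO 2 h replicate 3 the 2 h value was -1.75 (edgeR adjusted p = 4.35e-07). The 2 h call was lost without PNU replicate 2 (-1.45, adjusted p = 0.188), PNU replicate 3 (-1.37, 0.212), DMSO replicate 1 (-1.31, 0.118) or DMSO replicate 2 (-1.25, 0.177), each an edgeR log2 fold change with its adjusted p. It was lost as well in a fit of the 6 libraries alone (-1.46, edgeR adjusted p = 0.266) and with near-identical libraries summed (-1.42, edgeR adjusted p = 0.55).

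Snai1, which encodes the Snail repressor, had its lowest levels in PNU at 6 h, whereas those of Snai2 were in PNU at 2 h. Its levels at 2 h were 104.0, 74.1 and 67.0 CPM in DMSO and 79.4, 77.0 and 76.7 in PNU, which overlapped. At 6 h they were 87.5, 84.5 and 81.4 CPM in DMSO and 60.5, 54.2 and 57.9 in PNU, with no overlap. The log2 fold change at 2 h was -0.07 ± 0.13 (SE; edgeR adjusted p = 0.723) and at 6 h -0.55 ± 0.13, which did not pass (edgeR adjusted p = 0.0748). Without PNU 6 h replicate 1 the 6 h value was -0.59 and just passed (edgeR adjusted p = 0.049), and without both libraries that stood apart it was -0.59 as well (edgeR adjusted p = 0.00206). It passed in 6 of 13 alternatives in all, DESeq2 among them (-0.55, adjusted p = 0.0095). The difference between the PNU effects at 6 h and 2 h was -0.48 ± 0.19 for Snai1 and 0.71 ± 0.34 for Snai2, with edgeR adjusted p of 0.382 and 0.459, so neither time pattern passed the test of the difference itself.

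The balance of Snai1 to Snai2 RNA was compared per length. Per kilobase, Snai1 exceeded Snai2 by 4.49 to 5.41 times in PNU at 2 h and by 1.35 to 2.83 times in DMSO at 2 h. At 6 h the ratio was 1.59 to 2.06 in PNU and 1.52 to 1.68 in DMSO. PNU at 2 h thus had the 3 highest ratios of the 12 libraries, and no test was made of this ratio. The plot of Snai2 against Snai1 shows the PNU 2 h libraries below all others on the Snai2 axis.

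Twist1, a mesodermal and mesenchymal transcription factor, had the smallest ratio of highest to lowest library of the 9 tested genes, 1.35, at 71.7 to 97.0 CPM. Its means at 2 h were 87.2 ± 9.90 in DMSO and 86.1 ± 0.635 CPM in PNU (SD, n = 3 each), with overlapping libraries. At 6 h DMSO measured 94.2, 88.8 and 88.4 CPM and PNU 71.7, 80.9 and 76.4, without overlap. The 6 h log2 fold change was -0.24 ± 0.09 (SE) and did not pass (edgeR adjusted p = 0.195). Twist2, its relative in dermis and bone, was low in every library, at 1.66 to 5.01 CPM. DMSO at 2 h measured 3.43, 2.90 and 5.01 CPM and PNU at 2 h 4.59, 2.47 and 2.82, while at 6 h DMSO measured 2.30, 2.38 and 2.29 and PNU 2.11, 1.66 and 1.89. The highest 2 h values of Twist2 came from DMSO replicate 3 and PNU replicate 1, and its 6 h log2 fold change of -0.30 ± 0.26 did not pass (edgeR adjusted p = 0.625). Exons of Twist2 overlap 1477 bases of Gm29100 on the other strand, and since the strand setting of the counting is not given, reads there cannot be assigned to 1 of them.

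The Zeb factors, repressors with 2 zinc-finger clusters, pointed in opposite directions at 2 h. Zeb2 measured 101.5, 129.4 and 90.3 CPM in DMSO at 2 h and 73.1, 85.5 and 84.0 in PNU, with no overlap. Its 2 h log2 fold change was -0.41 ± 0.12 (SE) and did not pass (edgeR adjusted p = 0.0755), but without both libraries that stood apart it was -0.51 and passed (edgeR adjusted p = 0.000763). At 6 h Zeb2 was at 114.1 ± 2.64 CPM in DMSO and 107.1 ± 1.95 in PNU (SD, n = 3 each), a log2 fold change of -0.09 ± 0.12 (edgeR adjusted p = 0.748). Zeb1 measured 75.7, 89.9 and 84.2 CPM in DMSO at 2 h and 90.0, 101.6 and 101.7 in PNU. Its lowest PNU library lay barely above its highest DMSO library, and the log2 fold change of 0.23 ± 0.12 did not pass (edgeR adjusted p = 0.21). Without both libraries that stood apart it was 0.24 and passed (edgeR adjusted p = 0.023). At 6 h Zeb1 was at 95.7 ± 2.06 CPM in DMSO and at 113.2, 82.5 and 83.3 in PNU, where replicate 1 alone lay above DMSO. The log2 fold change there was -0.04 ± 0.12 (edgeR adjusted p = 0.902). Zeb2 shares 467 exon bases with its antisense gene Zeb2os and Zeb1 198 with Gm10125, and reads of these partners cannot be told apart without the strand.

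The cadherins were set far apart. Cdh1, E-cadherin of adherens junctions in epithelia, had 0 to 6 counts per library and at most 0.115 CPM, and it did not pass the filter in any comparison. In replicate order its counts were 6, 2 and 4 in DMSO and 5, 2 and 0 in PNU at 2 h, and 2, 4 and 0 in DMSO and 3, 5 and 3 in PNU at 6 h. At counts this low only a large difference in Cdh1 could have been detected. Cdh2, N-cadherin of neural and mesenchymal junctions, had the highest CPM of the set. At 2 h it measured 180.0, 197.1 and 206.3 CPM in DMSO and 184.0, 232.0 and 239.1 in PNU, and at 6 h 179.1, 184.2 and 179.7 in DMSO and 162.6, 283.0 and 291.0 in PNU. PNU 6 h replicates 2 and 3 stood above every other library and replicate 1 below all of them, so the groups overlapped. The 6 h log2 fold change was 0.44 ± 0.18 (SE) and did not pass (edgeR adjusted p = 0.271), while the 2 h value was 0.17 ± 0.18 (0.547). Without PNU 6 h replicate 1 and DMSO 2 h replicate 3, Cdh2 passed at 6 h with a log2 fold change of 0.67 (edgeR adjusted p = 0.000271).

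Esrp2 and F11r, the epithelial genes that could be tested, were higher in PNU at 6 h, at low levels. Esrp2 encodes an RNA-binding protein that directs epithelial splice forms, and F11r encodes JAM-A, an adhesion protein of tight junctions. Esrp2 had 8 to 159 counts per library, and at 6 h it measured 0.177, 0.259 and 0.189 CPM in DMSO and 0.541, 2.40 and 2.46 in PNU. At 2 h it measured 0.351, 0.187 and 0.552 CPM in DMSO and 0.854, 0.356 and 0.323 in PNU. PNU replicate 1 at 6 h lay above the DMSO libraries of that time but at the level of DMSO 2 h replicate 3, whereas replicates 2 and 3 stood above all other libraries. Esrp2 rose at 6 h from 0.208 ± 0.0441 to 1.80 ± 1.09 CPM (SD, n = 3 each), a log2 fold change of 3.10 ± 0.62 (SE; edgeR adjusted p = 0.0412), or 8.56-fold. At 2 h its log2 fold change was 0.46 ± 0.60 (edgeR adjusted p = 0.62).

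F11r had 8 to 123 counts per library and, like Esrp2, was lowest in replicate 1 and highest in replicate 3 of PNU at 6 h. It measured 0.199, 0.148 and 0.172 CPM in DMSO and 0.384, 1.45 and 1.91 in PNU at 6 h, without overlap. At 2 h it measured 0.193, 0.168 and 0.394 CPM in DMSO and 0.392, 0.356 and 0.369 in PNU, where DMSO replicate 3 lay above all PNU libraries. F11r rose at 6 h from 0.173 ± 0.0256 to 1.25 ± 0.781 CPM (SD, n = 3 each), a log2 fold change of 2.85 ± 0.54 (SE; edgeR adjusted p = 0.0322), or 7.18-fold. The 2 h value was 0.54 ± 0.53 (edgeR adjusted p = 0.499), and 1.03 without both libraries that stood apart (edgeR adjusted p = 0.0129).

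Without PNU 6 h replicate 1 the 6 h log2 fold changes were 3.53 for Esrp2 (edgeR adjusted p = 0.00287) and 3.27 for F11r (0.00109). Leaving out any other library of the 6 h comparison ended both calls: without PNU replicate 2, Esrp2 was at 2.84 (adjusted p = 0.179) and F11r at 2.73 (0.136), and without PNU replicate 3 at 2.81 (0.173) and 2.41 (0.151). Without DMSO replicates 1, 2 and 3 in turn, Esrp2 was at 3.00 (adjusted p = 0.21), 3.28 (0.185) and 3.03 (0.224), and F11r at 2.95 (0.147), 2.74 (0.187) and 2.85 (0.185), all by edgeR. With near-identical libraries summed, the log2 fold changes were 2.83 for Esrp2 and 2.59 for F11r. All 3 DMSO libraries at 6 h then form 1 unit, so this fit is given for size only.

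Levels of a Y-linked gene and of markers of other cell types were set beside these values. Ddx3y, a gene of the Y chromosome, measured 7.30 and 6.66 CPM in PNU 6 h replicates 2 and 3, 5.05 in DMSO 2 h replicate 3 and 2.33 in PNU 2 h replicate 1, and at most 0.140 in the other 8 libraries. Esrp2 and F11r were both highest in the first pair and, within each 2 h group, highest in the library with most Ddx3y. For F11r in PNU at 2 h the margin was small, at 0.392 beside 0.356 and 0.369 CPM. Pearson's r of log2 CPM with Ddx3y over the 12 libraries was 0.863 for Esrp2 and 0.8 for F11r. The 6 surface-epithelium markers, among them Epcam and the keratins Krt5 and Krt14, all stayed under 1 CPM, and their sum was 0.310 to 0.516 CPM in DMSO and 0.275 to 0.527 in PNU at 6 h. The 6 leukocyte markers summed to 4.21 to 4.65 CPM in DMSO and 9.53 to 11.3 in PNU at 6 h. Most of that difference lay in Csf1r, a macrophage growth factor receptor, at 1.87 to 2.65 CPM in DMSO and 6.97 to 8.39 in PNU, where replicate 1 was the highest. Csf1r passed at 6 h with a log2 fold change of 1.81 ± 0.285 (SE; edgeR adjusted p = 0.0141). Ptprc, the defining leukocyte marker, had 2, 0 and 2 counts in DMSO and 5, 13 and 15 in PNU, without overlap but at most 0.233 CPM, and Tyrobp stayed at or under 0.0873 CPM. The 6 endothelial markers summed to 1.20 to 1.81 CPM in DMSO and 2.25 to 2.74 in PNU, and the 11 RPE markers to 4.62 to 4.85 in DMSO and 2.79 to 4.28 in PNU. The part of these RNAs in the Esrp2 and F11r result was not tested. Exons of Esrp2 overlap 219 bases of Nfatc3 on the other strand, and Nfatc3, at 45.4 to 61.6 CPM, had a 6 h log2 fold change of 0.06 (edgeR adjusted p = 0.814). They also overlap 119 bases of 1810019D21Rik on the other strand, which measured 0.0187 to 0.305 CPM. Reads there cannot be assigned without the strand setting. F11r shares no exon bases with another annotated gene.

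**Figure D3:**
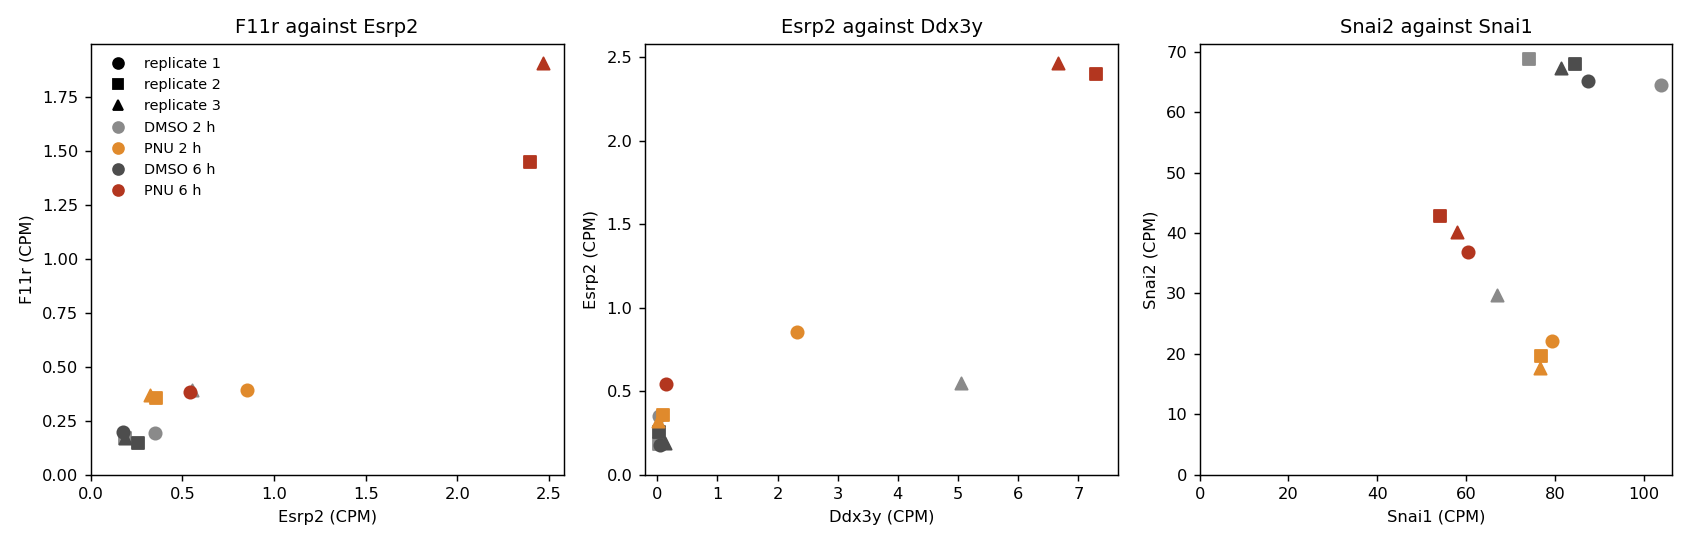
Levels in the 12 libraries (CPM, linear axes), coloured by group with the replicate shown by shape: F11r against Esrp2, Esrp2 against Ddx3y, and Snai2 against Snai1. PNU 6 h replicates 2 and 3 stand apart on the first 2 panels, at 2.40 and 2.46 CPM of Esrp2.

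Time alone was compared within each treatment. In DMSO none of the 9 genes passed, and 0% of all genes did (edgeR). By unadjusted p under 0.05 the count was 1 of 9, Twist2, against 4.77% of all genes; DESeq2 called 0 of the 9. In PNU, 5 of 9 passed between 2 h and 6 h against a background of 16.1%, and this comparison shares its libraries with the contrasts against DMSO. Snai2 rose from 19.8 to 39.9 CPM, a log2 fold change of 1.01 ± 0.24 (SE; edgeR adjusted p = 0.022). Zeb2 rose from 80.9 to 107.1 CPM (0.41 ± 0.12, edgeR adjusted p = 0.0376), Esrp2 from 0.511 to 1.80 (1.84 ± 0.57, 0.0486) and F11r from 0.372 to 1.25 (1.74 ± 0.50, 0.0372). Snai1 fell from 77.7 to 57.5 CPM, a log2 fold change of -0.43 ± 0.13 (edgeR adjusted p = 0.0466). The plot of fold changes shows the Snail genes on opposite sides of 0 here.

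These calls lay near the threshold. Each call for Snai1 and Zeb2 was lost when any 1 of the 6 PNU libraries was left out, with log2 fold changes of -0.47 to -0.39 and 0.34 to 0.45 and a lowest edgeR adjusted p of 0.0762 and 0.0653. For Snai2 the call was kept without replicate 1 of either time and lost without the other 4, at 0.94 to 1.01 with an edgeR adjusted p of 0.0579 to 0.0856. For Esrp2 and F11r it was kept only without PNU 6 h replicate 1 (2.27 and 2.17, edgeR adjusted p = 0.0124 and 0.00402), and was lost without any other library, with a lowest adjusted p of 0.0513 and 0.0904. Without both libraries that stood apart, all 5 passed and Twist2, Zeb1 and Cdh2 passed as well, at -0.88, -0.23 and 0.40. In that fit 6170 of 17406 genes passed for time in PNU.

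**Figure D4:**
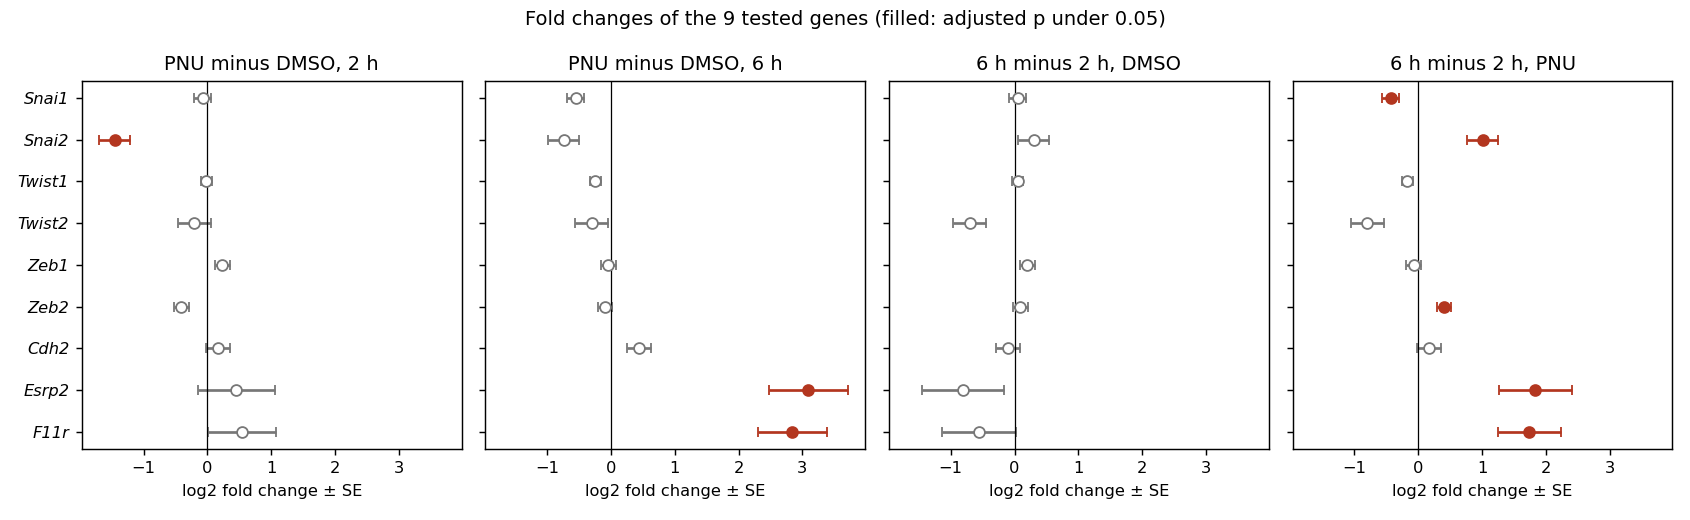
Log2 fold change with its standard error for the 9 tested genes in 4 comparisons, from edgeR; filled red points have an adjusted p under 0.05. Snai2 is the filled gene for PNU minus DMSO at 2 h, Esrp2 and F11r those at 6 h, none is filled for time in DMSO and 5 are for time in PNU.

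The difference between the PNU effects at 6 h and at 2 h was tested directly. None of the 9 genes passed, against 0.0350% of all genes (edgeR), and 3 of 9 had an unadjusted p under 0.05, against 11.3%: Snai1, Esrp2 and F11r. DESeq2 called 0 of the 9 as well. The difference was 2.64 ± 0.86 for Esrp2 and 2.30 ± 0.76 for F11r on the log2 scale (SE; edgeR adjusted p = 0.295 and 0.301). Without both libraries that stood apart, 6 of 9 passed, with F11r at 2.24 (edgeR adjusted p = 0.00276) and Snai2 at 1.06 (0.0001). In that fit 3788 of 17406 genes passed for this difference.

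Other genes of the programme were counted from lists for the same cells. The lists were chosen with earlier results of these data known, so their shares beside all genes only describe. Of 26 tested partners and regulators of the factors, among them the Id proteins that hold helix-loop-helix factors from DNA and the Ctbp corepressors, none passed between PNU and DMSO at either time (edgeR). At an unadjusted p under 0.05, 4 were higher and 5 lower in PNU at 2 h, and 2 higher and 5 lower at 6 h, with medians of 0.04 and -0.06 on the log2 scale. Over all genes, 12.3% were higher and 17.7% lower at 2 h by that threshold, and 8.61% higher and 7.02% lower at 6 h. The highest per length were Id3, Id1 and Ctbp1. Their 2 h log2 fold changes were -0.73, -0.69 and 0.12 (edgeR adjusted p = 0.0975, 0.0929 and 0.387). Between 2 h and 6 h in PNU, 7 of the 26 passed (26.9%, beside 16.1% of all genes). Id4 rose by 0.57 and 6 others fell, Foxc2 by 1.15, Prrx2 by 0.99, Limd1 by 0.59, Tcf3 by 0.36, Kdm1a by 0.29 and Hdac1 by 0.23 on the log2 scale. Apart from the genes highest per length and those called against DMSO, list genes were named after their values were seen.

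Of 59 epithelial junction and identity genes in the tables, 31 stayed under 1 CPM in every library and 20 had a median above 1 CPM. In all, 35 could be tested, some of them at low levels. This list too was chosen with earlier results known, so the shares below are no independent support. At 2 h none passed (edgeR). At an unadjusted p under 0.05, 9 were higher and 2 lower in PNU at 2 h, beside 12.3% and 17.7% of all genes. The counts at 6 h were 12 higher and 0 lower, beside 8.61% and 7.02%. At 6 h 1 of 35 rose (2.86%, beside 1.05% of all genes called), and 28 of the 35 were above 0, beside 49.3% of all genes, the median log2 fold change being 0.36 beside -0.01 over all genes. The riser was Krt19, a keratin of simple epithelia, at 33.0, 30.6 and 32.4 CPM in DMSO and 41.3, 64.1 and 66.1 in PNU at 6 h. PNU replicate 1 was again the lowest of its group, and the log2 fold change was 0.84 ± 0.16 (SE; edgeR adjusted p = 0.0307). It was 1.03 without PNU replicate 1 (edgeR adjusted p = 0.00105), and uncalled without any other library of the comparison (0.72 to 0.86, edgeR adjusted p = 0.138 to 0.179). The highest per length, Klf4, Cgnl1 and Jam2, had 6 h log2 fold changes of 0.08, 0.07 and 0.31 (edgeR adjusted p = 0.867, 0.833 and 0.265). Between 2 h and 6 h in PNU, 5 of 35 passed (14.3%, beside 16.1% of all genes): Dsc2, Pkp2, Krt19 and Jam3 rose by 1.47, 0.76, 0.50 and 0.30, and Klf4, a zinc-finger factor of epithelial differentiation, fell by 1.11 on the log2 scale.

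Among 17 tested cadherins and catenins beyond Cdh1 and Cdh2, 5 were higher and 3 lower in PNU at 2 h at an unadjusted p under 0.05. The counts at 6 h were 5 higher and 3 lower. Shares over all genes were 12.3% higher and 17.7% lower at 2 h, and 8.61% and 7.02% at 6 h. By adjusted p (edgeR), none passed at 2 h and 1 rose at 6 h (5.88%, beside 1.05% of all genes called). It was Ctnnd2, a catenin of neural junctions, at 1.75, 1.55 and 1.62 CPM in DMSO and 3.86, 10.3 and 10.6 in PNU, a log2 fold change of 2.33 ± 0.45 (SE; edgeR adjusted p = 0.036). Replicates 2 and 3 of PNU were once more above replicate 1, without which the value was 2.68 (edgeR adjusted p = 0.004). Without any other library of the comparison it was uncalled (2.12 to 2.38, edgeR adjusted p = 0.161 to 0.199). Cdh11, a mesenchymal cadherin, measured 695.8, 700.2 and 705.9 CPM in DMSO and 479.7, 309.9 and 303.3 in PNU at 6 h. Its log2 fold changes were -0.84 ± 0.24 at 2 h and -0.94 ± 0.24 at 6 h, which did not pass (edgeR adjusted p = 0.0775 and 0.0998). The catenins Ctnna1 and Ctnnb1, which link cadherins to actin, were at 0.08 and -0.07 at 6 h (edgeR adjusted p = 0.723 and 0.672). Between 2 h and 6 h in PNU, 4 of 17 passed (23.5%, beside 16.1% of all genes): Ctnnd1 rose by 0.37 and Cdh19, Cdh13 and Ctnnal1 fell by 2.45, 0.44 and 0.37 on the log2 scale.

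All 24 mesenchymal genes, of which 5 are also in the fibroblast list, were measured above 1 CPM at the median, 18 of them above 100, and none passed between PNU and DMSO (edgeR). At an unadjusted p under 0.05, 9 were higher and 2 lower in PNU at 2 h, and 10 higher and 3 lower at 6 h, with medians of 0.11 and 0.27 on the log2 scale. The shares over all genes were 12.3% higher and 17.7% lower at 2 h, and 8.61% and 7.02% at 6 h. Vim, the intermediate filament of mesenchyme and Müller glia, S100a4 and Sparc were highest per length. Their 6 h log2 fold changes were 0.12, 0.27 and 0.23 (edgeR adjusted p = 0.567, 0.306 and 0.146). Between 2 h and 6 h in PNU, 3 of 24 fell (12.5%, beside 16.1% of all genes called): Tgfb1 by 0.98, its receptor gene Tgfbr1 by 0.89 and the fibronectin receptor subunit Itga5 by 0.87 on the log2 scale. In no list did a gene pass for time in DMSO or for the difference between the PNU effects (edgeR).

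The genes most like each in pattern were found by Pearson's r of log2 CPM over the 12 libraries, which share depth, groups and the near-identical libraries, so the values only describe. Snai2 was most like Id4 at 0.986, and Snai1 like Plekhh3 at 0.97. Zeb2 was most like Gm20342 at 0.981 and Klf3 at 0.98, Twist1 like Cnn2 at 0.933, Twist2 like Aldh1a3 at 0.939 and Zeb1 like Creb3l4 at 0.899. Cdh2 was most like the cyclin gene Ccnd1 and the junction gene Cxadr at 0.964 each. F11r was most like Efnb2 at 0.986 and Esrp2 like Vgf at 0.976.

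On GRCm38, as the count tables place them, Snai1 lies at chr2:167538195-167542814, Snai2 at chr16:14705852-14709395, Twist1 at chr12:33957671-33959817, Twist2 at chr1:91801461-91848028 and Zeb1 at chr18:5591860-5775467. Zeb2 lies at chr2:44983632-45117395, Cdh1 at chr8:106603351-106670246, Cdh2 at chr18:16588877-16809246, Esrp2 at chr8:106130319-106136974 and F11r at chr1:171437535-171464603. Zeb2, Cdh2 and Esrp2 are on the minus strand and the others on the plus strand, and each value above sums reads over all annotated exons of the gene.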

How the data were processed

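Poly(A) RNA was sequenced as paired reads of 150 bases. Per the labels' protocols, reads were trimmed with fastp 0.23.2, aligned to GRCm38 by STAR 2.5.2b and assigned to genes by featureCounts (Subread 1.5.2). The deposited values are raw counts, 1 table per library. Strand setting, treatment of multi-mapping reads and annotation release are not given in the sources used here. DESeq2 is listed in the submitters' processing notes without its use. Of 49315 genes, 48970 had a symbol in GENCODE M21.

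The count test was that of edgeR 4.0.16 (R 4.3.3): filterByExpr kept 17164 genes, libraries were scaled by TMM, and 1 robust quasi-likelihood model of 4 group means was fitted to all 12 libraries. The 5 contrasts were PNU against DMSO at 2 h and at 6 h, 6 h against 2 h in DMSO and in PNU, and the difference of the PNU effects. P-values were adjusted by Benjamini-Hochberg over all genes, with a threshold of 0.05, and are two-sided. The SE is the log2 fold change divided by the square root of F. The pipeline was tested on simulated independent libraries with the same spread for every gene. That test does not cover near-identical libraries or libraries that stand apart. Alternatives were DESeq2 size factors, DESeq2 1.42.0, no filter, only the libraries compared, a block for replicate number, near-identical libraries summed to 8 units, removal of both libraries that stood apart, and each library left out.

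All 10 genes are named, with, from each list, genes called between PNU and DMSO with a mean of at least 1 CPM and the 3 highest per length, and the 3 most alike in pattern, of which the first or first 2 are printed. The genes and lists were chosen with earlier results of these data known.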

Additional observations from a re-analysis of the deposited data

How the results depend on the processing

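The number of genes called depended strongly on the fit. Counts of all genes called for PNU against DMSO at 2 h were 50 as reported, 2416 with DESeq2, 140 with no filter, 0 with the 6 libraries alone (2926 at an unadjusted p under 0.05), 311 with the replicate block, 0 with near-identical libraries summed (1487 unadjusted) and 9080 without both libraries that stood apart. Of the 9 genes, 1 was called as reported, 2 with DESeq2, 0 with no filter, alone or summed, and 4 without both. At 6 h, 181 genes became 865 with DESeq2, 1646 alone, 296 with the block, 0 summed (267 unadjusted) and 4981 without both; of the 9, 2 became 5 alone, 0 summed and 5 without both. For time in DMSO, 0 became 19 with DESeq2 and 117 without both. For time in PNU, 2759 became 5311 alone, 0 summed (2236 unadjusted) and 6170 without both; of the 9, 5 became 3 alone, 0 summed and 8 without both. For the difference of the PNU effects, 6 became 238 with DESeq2, 15 with no filter, 0 with the block (1929 unadjusted), 0 summed (226 unadjusted) and 3788 without both; of the 9, 0 became 6 without both. The cause of these shifts was not tested, except that a summed fit has 8 units in place of 12. All DMSO 6 h libraries form 1 of these units. Summed counts that involve this group therefore come without replicates in it and say little about single genes.

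Leaving out 1 library gave 0 to 7724 genes at 2 h, 22 to 1057 at 6 h, 0 to 4 for time in DMSO, 566 to 1710 for time in PNU and 0 to 2947 for the difference of effects; of the 9 genes, 0 to 2, 0 to 4, 0 to 0, 0 to 4 and 0 to 2 were called. Over single genes and all alternatives, 524 of 630 values kept their direction and side of the threshold, 56 lost the call, 31 gained one, and 19 changed sign, each uncalled both as reported and in the alternative. Same-numbered libraries deviated from their group means with correlations of -0.31 to 0.42. In 14 of 36 matches of a library to another group its own number came first. With 3 libraries a group, some of them near-identical, this check cannot decide whether same-numbered libraries were paired. The reported fit treated them as unpaired. With the replicate block, Esrp2 at 6 h was at 3.06 (edgeR adjusted p = 0.0543) and for time in PNU at 1.76 (0.079), both uncalled, while Snai1 at 6 h passed (-0.55, 0.0446). Depth limits Cdh1, Esrp2 and F11r, at 0 to 159 counts per library.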
